A study of Mus musculus with 8 samples.

Results

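The SLAM family of lymphocyte receptors and their SH2 domain adaptors was followed in mouse CD8+ T cells that had been treated with DADA or with its solvent. The 8 genes were taken by their symbols from the 22520 rows of the expression table, and all 8 were listed. They are 6 receptors, *Slamf1*, *Slamf6*, *Slamf7*, *Ly9*, *Cd84* and *Cd48*, and 2 adaptors, *Sh2d1a* and *Sh2d2a*.

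SLAM receptors are immunoglobulin-like proteins on the surface of blood cells, and most of them bind the same receptor on a neighbouring cell. In T cells their tails carry tyrosine motifs that dock SAP, the product of *Sh2d1a*, which brings in the kinase Fyn and keeps phosphatases from the same motifs. They are known in CD8+ T cells and NK cells for adjusting contact with target cells and killing, and SLAMF6, also called Ly108, is widely used to mark stem-like cells among exhausted CD8+ T cells.

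The cells were CD8+ T cells from the spleens of wild-type mice, kept for 6 days with antibodies to CD3 and CD28 and with IL-2, a culture the study used to induce exhaustion. From day 3 the medium held either DADA (diisopropylamine dichloroacetate, an inhibitor of the pyruvate dehydrogenase kinases) at 40 µM or DMSO, the solvent control. RNA was taken on day 6. There were 4 bulk RNA-seq libraries of each group, called DADA and DMSO, with the latter labelled Ctrl by the submitters. The stimulation was shared by both groups, no unstimulated cells were among the samples, and no strain, sex or age is tied to these cells in the sources used here. The sources do not say whether the libraries of a group came from separate mice or from parallel cultures, so the p-values measure the spread between these libraries, which may be technical.

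Levels are FPKM, in which the fragments of a gene are divided by the length of its transcript and by the depth of the library, so that levels of different genes can be set side by side. Differences were tested with limma on log2(FPKM + 1) over the 10666 genes with 1 FPKM or more in 4 or more of the 8 libraries. A gene was called at a Benjamini-Hochberg adjusted p under 0.05, and intervals are 95% intervals of the difference of log2(FPKM + 1), DADA minus DMSO. A large part of the transcriptome differed between the groups. Of the genes tested, 66.2% were called, 30.9% higher and 35.3% lower with DADA, and 60.6% had groups that did not overlap. The depth, estimated from the steps between low values, was 13790000 to 16250000 fragments with DMSO and 15270000 to 18670000 fragments with DADA. Correlations between libraries were 0.993 to 0.995 within groups and 0.958 to 0.961 between them. The 5 T cell markers *Cd8a*, *Cd8b1*, *Cd3d*, *Cd3e* and *Cd3g* summed to 674 to 680 FPKM with DMSO and 776 to 805 FPKM with DADA, and each was called higher, with differences of log2(FPKM + 1) from 0.08 to 0.35. The markers of other cells were at low levels. *Pax5* of B cells, *Csf1r* and *Adgre1* of macrophages, *Clec9a* of dendritic cells, *Hbb-bs* of erythroid cells and *Pf4* of platelets were listed at 0 in all 8 libraries, and the other markers of myeloid, dendritic, CD4 T, erythroid and platelet lineages were under 1 FPKM in each library. Of the 5 B cell markers, 4 were under 1 FPKM in each library, and 1 passed the filter and was not called. By list, the 5 myeloid markers summed to 0 to 0.0883 FPKM with DMSO and 0.0529 to 0.188 FPKM with DADA, the 3 dendritic markers to 0 to 0.0329 and 0.0218 to 0.0464 FPKM, and the 2 CD4 T cell markers *Cd4* and *Foxp3* to 0.186 to 0.513 and 0.355 to 0.499 FPKM. The 3 erythroid markers summed to 0 to 0.169 FPKM with DMSO and 0 to 0.0987 FPKM with DADA, and the 2 platelet markers to 0.42 to 0.544 and 0.394 to 0.502 FPKM. In a fit without the filter, *Foxp3* (0.0426 to 0.103 FPKM with DMSO, 0.187 to 0.268 FPKM with DADA, limma adjusted p = 0.000484), *Flt3* (0 in DMSO 1 to 4, 0.0218 to 0.0464 FPKM with DADA, limma adjusted p = 0.00526) and *Itgam* (0 to 0.0173 and 0.0193 to 0.0407 FPKM, limma adjusted p = 0.0428) were called higher. The part of other cells in the results that follow was not tested.

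All 8 genes passed the filter. Of them 5 were called, all higher with DADA, namely *Slamf7*, *Ly9*, *Cd48*, *Slamf1* and *Sh2d2a*, and the same 5 had groups that did not overlap. None was called lower, and *Cd84*, *Slamf6* and *Sh2d1a* were not called. Among the 6 receptors, 4 were called. The called share of the 8 genes, 62.5%, lay near the 66.2% of all genes tested. The share without overlap was the same 62.5%, near the 60.6% of all genes tested. Their median difference of log2(FPKM + 1) was 0.241, that of the 6 receptors was 0.318, and that of all genes tested was -0.0196. In bulk RNA, more cells with a transcript cannot be told apart from more of it per cell.

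**Figure D1:**
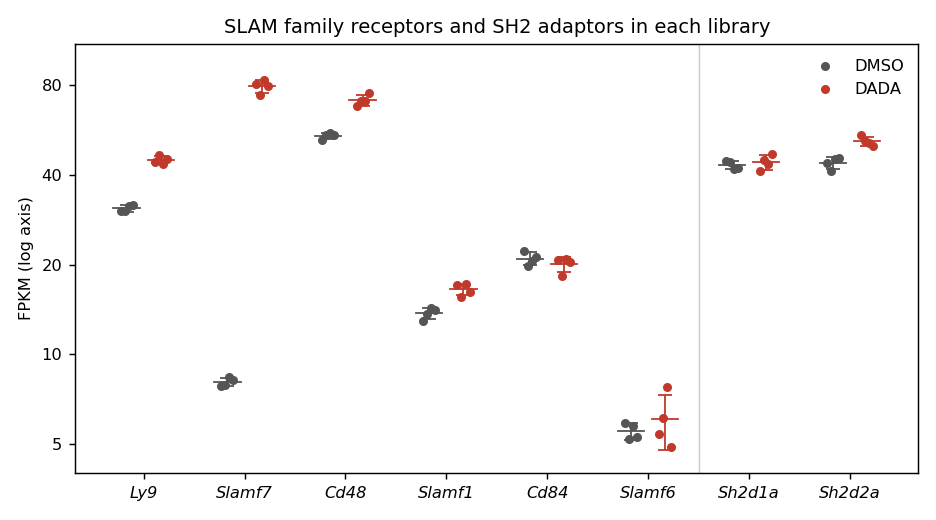
Levels of the 6 receptors and the 2 adaptors in FPKM on a log axis, with 1 point per library, DMSO in grey and DADA in red, a long bar at the mean of 4 libraries and whiskers of 1 SD. The *Slamf7* points lie between 7.81 and 8.37 FPKM with DMSO and between 74.1 and 83.1 FPKM with DADA, the *Ly9*, *Cd48*, *Slamf1* and *Sh2d2a* groups are apart by less, and those of *Cd84*, *Slamf6* and *Sh2d1a* overlap.

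*Slamf7* had by far the largest change of the family. It encodes SLAMF7, also called CRACC or CD319, a receptor that binds itself and is known on NK cells, cytotoxic T cells and plasma cells. Its level (ENSMUSG00000038179) was 7.81, 7.92, 8.37 and 8.23 FPKM in DMSO 1 to 4 and 80.6, 74.1, 83.1 and 79.6 FPKM in DADA 1 to 4. Every DADA library was far above every DMSO library, the lowest of them at 8.85 times the highest DMSO level. The mean rose from 8.08 ± 0.258 to 79.3 ± 3.82 FPKM (SD, n = 4 each), a ratio of 9.82. The difference of log2(FPKM + 1) was 3.14 (95% interval 3.06 to 3.23, limma adjusted p = 4.07e-12). This placed *Slamf7* at rank 20 of the 10666 genes tested, ordered from the largest rise on this scale, which understates changes of low genes.

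Because SLAMF7 is also a protein of plasma cells and NK cells, the markers of these cells are given beside it. The plasma cell markers *Sdc1* and *Jchain* summed to 1.46 to 1.75 FPKM with DMSO and 2.25 to 2.95 FPKM with DADA. *Sdc1*, the only one of these 2 past the filter, rose from 1.55 to 2.36 FPKM (log2 difference 0.40, limma adjusted p = 0.000446). The 4 NK markers *Ncr1*, *Klrb1c*, *Klra8* and *Tyrobp* were each under 1 FPKM in every library and summed to 0.0236 to 0.271 FPKM with DMSO and 0.392 to 0.776 FPKM with DADA. In the fit without the filter, *Klrb1c* (0 to 0.0484 FPKM with DMSO, 0.144 to 0.249 FPKM with DADA, limma adjusted p = 0.000507) and *Jchain* (0 to 0.167 and 0.146 to 0.448 FPKM, limma adjusted p = 0.0130) were called higher. The 5 B cell markers summed to 2.59 to 3.54 FPKM with DMSO and 2.36 to 3.09 FPKM with DADA, most of it from the 1 marker past the filter. The part of such cells in the rise of *Slamf7* was not tested.

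The bases before the start of *Slamf7* and of *Cd84* are shown because these were the only 2 of the 5 members in the promoter table that held the letters of an AP-1 site, and one had the largest change of the family and the other had no called change. AP-1 is a transcription factor of T cell activation. The sequences are the 250 bases upstream of the annotated start, 5′ to 3′ on the gene's own strand, from RefSeq on the mouse build GRCm38.p6, with TGANTCA in capitals. They lie at chr1:171649000-171649249 on the minus strand for *Slamf7* and at chr1:171839447-171839696 on the plus strand for *Cd84*.
Slamf7: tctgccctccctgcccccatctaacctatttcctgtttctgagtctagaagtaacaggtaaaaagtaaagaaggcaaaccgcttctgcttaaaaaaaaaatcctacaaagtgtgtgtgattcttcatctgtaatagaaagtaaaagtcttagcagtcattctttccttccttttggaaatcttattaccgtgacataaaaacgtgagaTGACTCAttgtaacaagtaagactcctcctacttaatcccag
Cd84: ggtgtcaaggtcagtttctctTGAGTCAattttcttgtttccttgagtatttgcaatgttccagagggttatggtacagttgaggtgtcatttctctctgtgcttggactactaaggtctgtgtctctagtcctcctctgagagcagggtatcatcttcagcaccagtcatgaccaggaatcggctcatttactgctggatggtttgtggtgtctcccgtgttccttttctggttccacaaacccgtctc
The first base of these letters is 42 bases before the start of *Slamf7* and 229 bases before that of *Cd84*. On either strand, TGANTCA was found in 6.75% of 32851 mouse promoters of this length. Outside the members, the windows of *Cd244a*, *Sh2d1b1* and *Sh2d1b2* also held it, and these genes were under 1 FPKM in every library. The interferon response element, searched as GAAA, 2 bases of any kind and GAAA, was found in 2.98% of them, and the STAT element, TTCNNNGAA, in 7.02%, and neither was in the window of *Slamf1*, *Slamf6*, *Slamf7*, *Cd84* or *Cd48*. A match is a description of the letters, not a site of binding, and *Ly9*, *Sh2d1a* and *Sh2d2a* had no entry in that table.

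The 3 genes whose pattern over the 8 libraries was closest to that of *Slamf7* were *Mx2*, *Rsad2* and *H2-Q10*. Closeness was the root mean square distance of log2(FPKM + 1), with each gene centred on its own mean, over these 8 libraries of 2 groups. The distances were 0.0661 for *Mx2*, 0.0755 for *Rsad2* and 0.0797 for *H2-Q10*. *Mx2*, an interferon-induced GTPase, had a mean of 0.218 FPKM with DMSO and 9.68 FPKM with DADA. *Rsad2*, the antiviral enzyme viperin, had means of 0.12 and 9.66 FPKM. *H2-Q10*, an MHC class I gene whose family shares much sequence so that reads may be split among its members, had means of 2.28 and 30.1 FPKM. *Mx2* and *Rsad2* were under 1 FPKM with DMSO and passed the filter through the DADA libraries alone. At such levels the added 1 shrinks a log2 difference, here to 3.13 for *Mx2* and 3.25 for *Rsad2*. Their closeness to *Slamf7* thus depends on this scale. The measure follows the size of the difference between the groups, and 1559 genes had a Pearson correlation over 0.95 with *Slamf7* across the 8 libraries.

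*Ly9* had the next largest rise among the receptors. It encodes SLAMF3, or CD229, a receptor that binds itself and has more immunoglobulin-like domains than its relatives. The *Ly9* level (ENSMUSG00000004707) was 30.3, 30.2, 31.4 and 31.7 FPKM in DMSO 1 to 4 and 44.1, 46.6, 43.4 and 45.1 FPKM in DADA 1 to 4, with no overlap. The mean rose from 30.9 ± 0.756 to 44.8 ± 1.38 FPKM (SD, n = 4 each), a ratio of 1.45. On the log2(FPKM + 1) scale the difference was 0.52 (95% interval 0.45 to 0.59, limma adjusted p = 1.79e-07).

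*Cd48* rose as well. CD48, or SLAMF2, is held in the membrane by a lipid anchor and has no signalling tail of its own. It is the ligand of 2B4, encoded by *Cd244a*, and in mice also of CD2. *Cd48* (ENSMUSG00000015355) was at 52.3, 54.5, 55.4 and 54.4 FPKM in DMSO 1 to 4 and at 68.3, 70.6, 70.6 and 75.5 FPKM in DADA 1 to 4. All DADA libraries were above all DMSO libraries, and the means were 54.2 ± 1.34 and 71.2 ± 3.04 FPKM (SD, n = 4 each), a ratio of 1.32. The difference of log2(FPKM + 1) was 0.39 (95% interval 0.31 to 0.46, limma adjusted p = 3.37e-06).

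*Slamf1* had the smallest called rise of the receptors. SLAMF1, or CD150, gave the family its name and binds itself. Its transcript (ENSMUSG00000015316) was at 12.97, 13.6, 14.3 and 14.1 FPKM in DMSO 1 to 4 and at 17.03, 15.6, 17.2 and 16.2 FPKM in DADA 1 to 4. The groups did not overlap, but the lowest DADA level was only 1.09 times the highest DMSO level. The mean rose from 13.8 ± 0.602 to 16.5 ± 0.746 FPKM (SD, n = 4 each), a ratio of 1.20, and the difference of log2(FPKM + 1) was 0.25 (95% interval 0.15 to 0.34, limma adjusted p = 0.000528).

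*Cd84* and *Slamf6* did not pass the test. CD84, or SLAMF5, binds itself and is known for the lasting contact of T cells with B cells. *Cd84* (ENSMUSG00000038147) was at 22.2, 19.8, 20.5 and 21.3 FPKM in DMSO 1 to 4 and at 20.8, 18.4, 20.9 and 20.3 FPKM in DADA 1 to 4, with overlapping groups. Its means were 20.9 ± 1.02 and 20.1 ± 1.18 FPKM (SD, n = 4 each). The difference of log2(FPKM + 1) was -0.06 (95% interval -0.17 to 0.05, limma adjusted p = 0.316, two-sided exact permutation p = 0.371).

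*Slamf6* (ENSMUSG00000015314) was the lowest of the 8 genes in both groups, at 5.90, 5.18, 5.74 and 5.26 FPKM in DMSO 1 to 4. In DADA 1 to 4 it was at 5.40, 6.13, 7.79 and 4.89 FPKM, so DADA 2 and 3 lay above all DMSO libraries and DADA 4 below them. The means were 5.52 ± 0.354 and 6.05 ± 1.26 FPKM (SD, n = 4 each), and the SD was 6.41% of the mean with DMSO and 20.9% with DADA, the latter the widest spread of the 8 genes. The difference of log2(FPKM + 1) was 0.10 (95% interval -0.15 to 0.34, limma adjusted p = 0.446, two-sided exact permutation p = 0.571). It rested on DADA 3, without which it was -0.01 (limma adjusted p = 0.890). The table has 1 row for *Slamf6*, so the splice forms of Ly108 were not told apart. These are RNA levels, and the paper reported higher Ly108 protein by flow cytometry with DADA in this kind of culture.

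The receptors together had a different makeup in the 2 groups. The FPKM of the 6 receptors summed to 131.3 to 135.8 with DMSO (mean 133.4) and to 231.4 to 243.0 with DADA (mean 238.1). Of the difference of 104.7 FPKM, 71.27 FPKM or 68.1% was *Slamf7*. Without *Slamf7* the sum of the other 5 was 123.4 to 127.4 FPKM with DMSO and 155.6 to 162.0 FPKM with DADA. *Slamf7* made up 6.058% ± 0.09192 of the receptor sum with DMSO and 33.32% ± 1.041 with DADA (SD, n = 4 each). *Cd48* had 40.61% with DMSO and 29.93% with DADA, and *Ly9* had 23.17% and 18.84%. Shares add to a fixed total, so these lower shares of *Cd48* and *Ly9* stand beside higher levels of both. The share of *Cd84* was 15.71% with DMSO and 8.438% with DADA, that of *Slamf1* 10.31% and 6.939%, and that of *Slamf6* 4.14% and 2.542%. Relative to *Slamf6*, the level of *Slamf7* was 1.325 to 1.564 times as high with DMSO and 10.68 to 16.27 times as high with DADA.

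**Figure D2:**
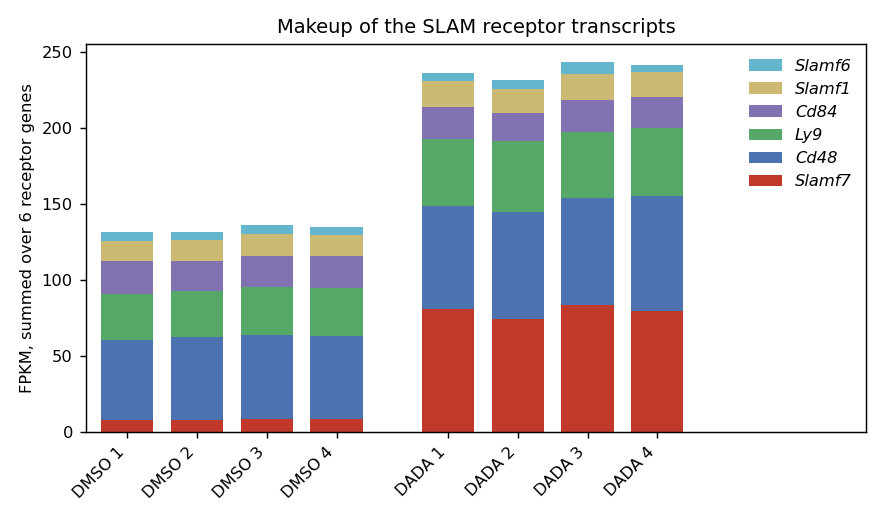
FPKM of the 6 receptor genes stacked for each of the 8 libraries, with *Slamf7* at the bottom in red. The stacks reach 131.3 to 135.8 FPKM with DMSO and 231.4 to 243.0 FPKM with DADA, and the *Slamf7* segment takes 5.945 to 6.161% of them with DMSO and 32.02 to 34.21% with DADA.

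The 2 adaptors differed in whether they passed the test. *Sh2d1a* encodes SAP, which binds the tails of most SLAM receptors in T cells and recruits Fyn. *Sh2d1a* (ENSMUSG00000005696) was at 44.7, 44.3, 41.9 and 42.2 FPKM in DMSO 1 to 4 and at 41.1, 45.02, 43.7 and 47.1 FPKM in DADA 1 to 4, with DADA 1 below and DADA 2 and 4 above all DMSO libraries. The means were 43.3 ± 1.42 and 44.2 ± 2.53 FPKM (SD, n = 4 each), and the difference of log2(FPKM + 1) was 0.03 (95% interval -0.06 to 0.12, limma adjusted p = 0.552, two-sided exact permutation p = 0.6). Without DADA 4 this difference was -0.00093 (limma adjusted p = 0.986).

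*Sh2d2a* encodes TSAd, a T cell adaptor known to bind the kinase Lck. *Sh2d2a* (ENSMUSG00000028071) was at 44.0, 41.2, 45.1 and 45.7 FPKM in DMSO 1 to 4 and at 54.2, 52.0, 51.1 and 50.2 FPKM in DADA 1 to 4. Every DADA library was above every DMSO library, and the mean rose from 44.0 ± 2.0 to 51.9 ± 1.75 FPKM (SD, n = 4 each), a ratio of 1.18. The difference of log2(FPKM + 1) was 0.23 (95% interval 0.15 to 0.32, limma adjusted p = 0.000312). The ratio of *Sh2d2a* to *Sh2d1a* was 0.9287 to 1.082 with DMSO and 1.064 to 1.32 with DADA, and these ranges overlapped. The summed FPKM of the receptors was 2.943 to 3.241 times the level of *Sh2d1a* with DMSO and 5.129 to 5.748 times with DADA, and these ranges did not overlap. This sum holds *Cd48*, whose product has no signalling tail, and 68.1% of its rise was *Slamf7*. It is therefore not a measure of the receptors that dock SAP.

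The order of the levels in FPKM changed mainly through *Slamf7*. With DMSO the order from the highest mean was *Cd48*, *Sh2d2a*, *Sh2d1a*, *Ly9*, *Cd84*, *Slamf1*, *Slamf7* and *Slamf6*. The ranges of *Sh2d2a* and *Sh2d1a* overlapped, and all other neighbours in this order were apart. With DADA the order was *Slamf7*, *Cd48*, *Sh2d2a*, *Ly9*, *Sh2d1a*, *Cd84*, *Slamf1* and *Slamf6*. Here *Slamf7* overlapped with *Cd48*, and *Ly9* overlapped with *Sh2d1a*. *Slamf7* was thus seventh with DMSO, and with DADA it was in the range of *Cd48*.

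Of the other genes of the SLAM system, *Cd2* was the only one of 6 past the filter. CD2 is the T cell adhesion receptor that binds CD48 in mice. *Cd2* (ENSMUSG00000027863) was at 177, 171, 164 and 169 FPKM in DMSO 1 to 4 and at 291, 289, 288 and 281 FPKM in DADA 1 to 4, well apart. The mean rose from 170 ± 5.65 to 287 ± 4.55 FPKM (SD, n = 4 each), a ratio of 1.69, and the difference of log2(FPKM + 1) was 0.75 (95% interval 0.69 to 0.81, limma adjusted p = 5.42e-09). The receptor and the ligand of this pair were thus both higher with DADA.

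The other 5 were at low levels in both groups. *Cd244a*, whose product 2B4 also binds CD48, was at 0.318 to 0.570 FPKM with DMSO and 0.435 to 0.646 FPKM with DADA. *Slamf9* was at 0.139 to 0.269 FPKM with DMSO and 0.117 to 0.167 FPKM with DADA. In a fit without the filter, in which 48.7% of 16167 genes were called, neither was called (limma adjusted p = 0.327 for *Cd244a* and 0.0934 for *Slamf9*). *Sh2d1b1*, which encodes EAT-2, the adaptor that SLAMF7 uses in NK cells, had a listed value of 0 in DMSO 1 to 4 and values of 0.0544, 0.0474, 0.0679 and 0.101 FPKM in DADA 1 to 4. In the fit without the filter it was called (limma adjusted p = 0.00163), at levels far under 1 FPKM. *Sh2d1b2*, the second EAT-2 gene, was above 0 in DADA 2 only, at 0.0216 FPKM, and *Slamf8* in DMSO 1 only, at 0.0416 FPKM.

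The kinases, phosphatases and adaptors that act with SAP and TSAd moved in both directions. Of 15 such genes, all past the filter, 7 were called higher with DADA, 4 were called lower and 4 were not called. This is 73.3%, against 66.2% of all genes tested. Groups did not overlap for 12 of the 15, where 60.6% of all genes tested had such groups. Their median difference of log2(FPKM + 1) was 0.0993.

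Among the genes that rose were *Prkcq*, *Dgka*, *Txk* and *Plcg1*. *Prkcq* encodes PKC theta, the protein kinase C of the T cell synapse, which SAP can bring to SLAM receptors with Fyn. *Prkcq* was at 31.3, 30.4, 31.9 and 32.8 FPKM in DMSO 1 to 4 and at 48.6, 48.3, 50.7 and 50.0 FPKM in DADA 1 to 4, without overlap, and its difference of log2(FPKM + 1) was 0.63 (limma adjusted p = 4.26e-08). *Dgka* encodes diacylglycerol kinase alpha, which removes the lipid that activates PKC theta and which SAP is known to restrain. Its mean rose from 57.2 to 77.5 FPKM (log2 difference 0.43, limma adjusted p = 1.24e-07). *Plcg1*, the phospholipase that makes that lipid after T cell receptor signals, rose from 24.2 to 30.6 FPKM (log2 difference 0.32, limma adjusted p = 2.72e-05). *Txk*, a Tec family kinase, rose from 6.38 to 9.06 FPKM (log2 difference 0.45, limma adjusted p = 6.82e-05). *Vav1*, a guanine nucleotide exchange factor, *Ptpn6*, which encodes the phosphatase SHP-1, and *Lck*, the kinase of the CD4 and CD8 coreceptors, rose by 0.22, 0.14 and 0.10 on the same scale.

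*Fyn*, *Arhgef7* and *Ptpn11* were among the genes that fell. *Fyn*, the kinase that SAP recruits, was at 57.6, 56.6, 60.8 and 59.1 FPKM in DMSO 1 to 4 and at 49.0, 46.4, 46.4 and 47.8 FPKM in DADA 1 to 4. The DADA libraries all lay below the DMSO libraries, and the difference of log2(FPKM + 1) was -0.30 (limma adjusted p = 1.05e-05). *Arhgef7*, which encodes the exchange factor beta-PIX, fell by 0.26 and *Ptpn11*, which encodes the phosphatase SHP-2, by 0.13 on the log2 scale. *Nck1*, *Inpp5d*, *Csk* and *Plcg2* were not called, and the adjusted p of *Plcg2* was 0.0567 by limma.

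**Figure D3:**
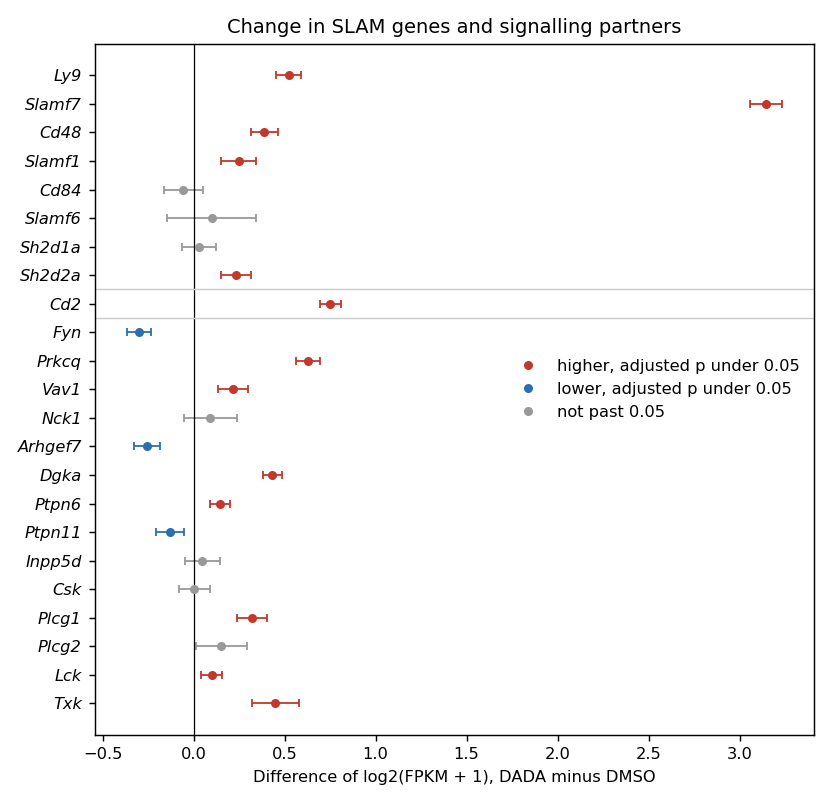
Difference of log2(FPKM + 1), DADA minus DMSO, for the 8 SLAM genes, *Cd2* and the signalling partners shown, with 95% intervals from limma over 4 libraries per group. *Slamf7* stands at 3.14, *Cd2* follows at 0.75 and *Prkcq* at 0.63, and the genes called lower, in blue, lie between -0.30 and -0.13.

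The 6 receptor genes lie side by side in 1 cluster on chromosome 1. In the order of the reference, they are *Ly9*, *Slamf7*, *Cd48*, *Slamf1*, *Cd84* and *Slamf6*, after *Cd244a*, and the only other gene that RefSeq lists as protein-coding among them is *Tma7-ps*, between *Cd48* and *Slamf1*. *Slamf9* and *Slamf8* lie further along, among other genes. The called receptors *Ly9*, *Slamf7*, *Cd48* and *Slamf1* were adjacent to each other, and so were *Cd84* and *Slamf6*, which were not called. The immediate neighbours of *Slamf7*, *Ly9* and *Cd48*, had log2 differences of 0.52 and 0.39 against its 3.14. *Sh2d2a* and *Cd2* are on chromosome 3 and *Sh2d1a* is on chromosome X. Positions of genes are given here only as their order, since the build of the reference differs from those named for the files.

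Of 23 other genes that RefSeq lists as protein-coding and that lie among the outermost SLAM genes or within 100 kb of them, 22 (all but *Tma7-ps*) were matched in the table and 9 passed the filter. Of these 9, 2 were called higher, 2 lower and 5 were not called, which is 44.4% called against 66.2% of all genes tested, and their median difference of log2(FPKM + 1) was -0.0372. *Pea15a*, whose product binds ERK kinases, rose from 7.45 to 11.9 FPKM (log2 difference 0.61, limma adjusted p = 1.83e-06). *Tagln2*, which encodes an actin-binding protein, fell from 241 to 213 FPKM (log2 difference -0.18, limma adjusted p = 0.000988). *Ncstn*, a subunit of gamma-secretase, and *Igsf8*, an immunoglobulin-like membrane protein, changed by 0.09 and -0.13 on this scale (limma adjusted p = 0.0355 and 0.0350), and both calls were lost without DMSO 4, without DADA 1 and without DADA 4, which left 2 called genes. The call of *Igsf8* was also lost with TPM, median-ratio scaling and no filter (limma adjusted p = 0.0949, 0.0653 and 0.0520), where that of *Ncstn* held.

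**Figure D4:**
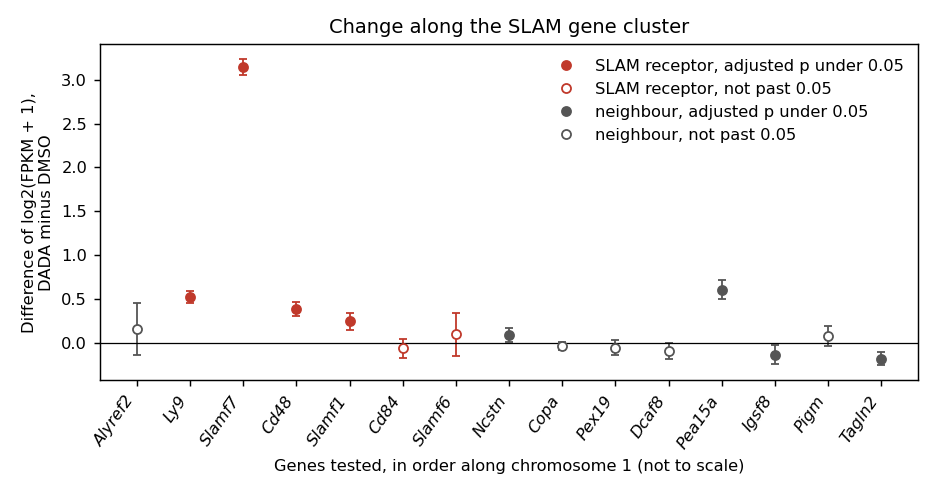
Difference of log2(FPKM + 1), DADA minus DMSO, with 95% intervals from limma, for the genes tested along the SLAM cluster of chromosome 1, in their order and not to scale. *Slamf7* stands at 3.14, its neighbours *Ly9* and *Cd48* at 0.52 and 0.39, and *Pea15a* at 0.61 is the highest of the other genes in the region.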

How the data were processed

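Bulk RNA-seq was analysed for 4 DMSO and 4 DADA libraries, assigned by their titles. The authors deposited 1 table of FPKM values per gene and library. The submitters' processing notes name CASAVA 1.8.2, FastQC 0.11.9, HISAT2 2.0.5, StringTie 1.3.3, Picard 1.41 and SAMtools 0.1.18 and the builds GRCm39 and GRCh38, without roles. Of 22520 rows, 415 carry no mouse gene identifier and 6353 were at 0 in every library. FPKM hold no counts, and between 38.2% and 46.2% of low values of 3858 genes with 1 transcript (GENCODE lengths) lay within 0.1 of a whole fragment. Evenly spread values would give 20%, but the depth was chosen to fit these same values, so the share does not test it. Depth is therefore only estimated, and count models were not used. A low gene has few fragments at this depth and its value is less precise.

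Values were fitted as log2(FPKM + 1) with limma 3.58.1 in R 4.3.3 (treatment as the only term, eBayes with trend, Benjamini-Hochberg adjustment over 10666 genes). This scale understates changes of low genes. The script was first run on simulated data with known changes. For single values, two-sided exact permutation tests ran over 70 assignments, whose smallest p is 0.0286. The members and lists were chosen with earlier results of these data known. Named were all members, the genes of the 2 lists (other SLAM genes and signalling partners), up to 2 called locus neighbours in each direction, the 3 genes most like the member with the largest rise, and cell type markers. Some of these are not reported here by name, while the counts and sums keep them. Gene names, gene order and promoters came from RefSeq (GRCm38.p6). Alternatives were a pseudocount of 0.1, no filter, a mean of at least 5 FPKM, TPM, median-ratio and quantile scaling, no variance trend, a replicate block and leaving out each library. Python 3.11.15, numpy 2.4.6, scipy 1.17.1, pandas 2.3.3 and matplotlib 3.10.9 were used.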

Additional observations from a re-analysis of the deposited data

Results flagged for a closer look

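In 3 sets of 4 libraries, 1 library stood apart from the other 3 by Dixon's criterion (the gap to the nearest library over the whole range). Among the 55 sets examined, chance alone would flag about 1 in 20 if values were normally spread, which does not hold for sets with values at 0. *Slamf8* was at 0.0416 FPKM in DMSO 1 and at 0 in the other DMSO libraries, a ratio of 1.0. *Sh2d1b2* was at 0.0216 FPKM in DADA 2 and at 0 in the other DADA libraries, also a ratio of 1.0. With the other 3 values at 0, any value above 0 gives this ratio, so the flags of *Slamf8* and *Sh2d1b2* carry no information. *Txk* was at 8.49 FPKM in DADA 2 and at 9.18 to 9.32 FPKM in the other DADA libraries, a ratio of 0.833, and its lowest DADA level was still above the DMSO libraries. No library stood apart in this way for any of the 8 SLAM members.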

How the results depend on the processing

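Of the 8 SLAM members, 5 were called under each of the 16 alternatives, and the log2 difference of *Slamf7* stayed between 3.12 and 3.28, that of *Ly9* between 0.50 and 0.56, that of *Cd48* between 0.36 and 0.42, that of *Slamf1* between 0.22 and 0.29 and that of *Sh2d2a* between 0.20 and 0.27. Members not called stayed so. With 1 library left out, *Slamf6* ranged from -0.01 (-0.0127, without DADA 3) to 0.18 (without DADA 4) and *Sh2d1a* from -0.00093 (without DADA 4) to 0.0635 (without DADA 1). With no filter 2 in place of 1 of the other SLAM genes were called, because *Sh2d1b1* entered the test. Called locus neighbours numbered 2 to 5 when 1 library was left out, with 2 without DMSO 4, DADA 1 or DADA 4. They numbered 3 with TPM, median-ratio scaling, no filter or no variance trend. Over all genes, calls ranged from 5741 to 7868. Deviations of same-numbered libraries from their group means had correlations of 0.0953, -0.12, -0.0877 and 0.0751. Those of differently numbered libraries ranged from -0.267 to 0.134. With 4 libraries per group, these values cannot decide whether the numbers mark a shared origin. With the replicate block, 5 members and 6995 of all genes were called. No count test was run, and the depth limits the genes under 1 FPKM most.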
